A study of Homo sapiens with 8 samples.

Results

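HIF-1β was found in both replicates of T47D cells and in both of HCT-116 cells, but not in both of PC3 or of A549 cells, at 356 of the 3840 regions that the 4 lines held together. The regions were chosen from the deposited peak lists. A site of a line was a merged region in which peaks of its replicates overlapped by at least 1 bp, the sites of the 4 lines were merged in turn, and regions were kept that held a site of T47D and of HCT-116 and none of PC3 or A549. They are called T47D/HCT-116 regions here. All 8 libraries came from HIF-1β ChIP-seq on established human cancer cell lines exposed to 0.5% oxygen for 16 h, and each line was represented by 2 replicates. T47D derives from breast cancer, HCT-116 from colorectal carcinoma, PC3 from prostate cancer and A549 from lung cancer, and each line is a single model of its tumour type. Libraries from normoxic cells or from a control were not analysed here, so binding could not be compared with and without hypoxia. A peak list holds no expression values, so the identity of the lines could not be checked against marker genes.

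HIF is a transcription factor made of an oxygen-regulated α subunit, HIF-1α or HIF-2α, and HIF-1β, which is also called ARNT and is not itself degraded in oxygen. The dimer binds DNA at the core motif RCGTG, where R is A or G, and is known for raising genes of glycolysis, angiogenesis and pH control when oxygen is low. HIF-1β also pairs with other proteins, among them the aryl hydrocarbon receptor, so a HIF-1β peak does not name its partner.

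The sequences below, from the GRCh37 (hg19) assembly on its plus strand, show the motif in regions that the results turn on: the region at VEGFA, members of the highest-scoring set, and the regions with most copies near their centre. Capitals mark every RCGTG on either strand, which reads CACGC or CACGT on the printed strand where the motif lies on the other one. The first pair are 60 bp around a TACGTG, and each other line is the 100 bp of the region with most copies among those that meet no annotated exon.
VEGFA upstream, chr6:43736944-43737003: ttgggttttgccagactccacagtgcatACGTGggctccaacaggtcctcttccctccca
VEGFA upstream, nearer the start, chr6:43737608-43737667: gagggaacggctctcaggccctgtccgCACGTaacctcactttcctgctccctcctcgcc
VEGFA intron, chr6:43739073-43739172: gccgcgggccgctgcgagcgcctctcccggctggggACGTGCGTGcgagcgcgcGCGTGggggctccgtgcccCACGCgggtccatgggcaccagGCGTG
RCOR2, chr11:63685554-63685653: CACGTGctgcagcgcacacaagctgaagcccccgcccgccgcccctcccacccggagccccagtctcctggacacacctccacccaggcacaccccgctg
NEBL, chr10:21462518-21462617: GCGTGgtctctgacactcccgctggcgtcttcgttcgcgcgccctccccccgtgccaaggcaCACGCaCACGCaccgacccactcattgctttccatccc
ADPRS/TEKT2, chr1:36555247-36555346: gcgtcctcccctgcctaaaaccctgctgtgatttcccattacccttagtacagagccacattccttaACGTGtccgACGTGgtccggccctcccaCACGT
DDX41, chr5:176944285-176944384: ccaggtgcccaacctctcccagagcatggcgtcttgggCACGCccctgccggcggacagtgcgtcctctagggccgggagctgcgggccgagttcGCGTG
nearest coding start TNS1, chr2:218621332-218621431: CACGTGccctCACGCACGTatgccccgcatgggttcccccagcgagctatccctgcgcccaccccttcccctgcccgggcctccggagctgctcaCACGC
nearest coding start RTP5, chr2:242823941-242824040: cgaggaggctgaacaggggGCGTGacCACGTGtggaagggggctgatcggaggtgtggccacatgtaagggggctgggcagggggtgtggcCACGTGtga
VAPB, chr20:56964185-56964284: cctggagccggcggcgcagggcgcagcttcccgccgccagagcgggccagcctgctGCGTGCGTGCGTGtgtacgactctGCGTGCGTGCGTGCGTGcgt
nearest coding start ADRA2C, chr4:3748476-3748575: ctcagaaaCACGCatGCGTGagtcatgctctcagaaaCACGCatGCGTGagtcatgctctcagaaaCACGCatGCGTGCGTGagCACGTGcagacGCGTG
CACGTG reads the same on both strands and was counted as 2 copies. The intronic VEGFA stretch held 5 copies and the TNS1 stretch also held 5. The VAPB stretch holds 7 copies in runs of overlapping GCGTG. The ADRA2C stretch held 10, in a tandem repeat whose unit is 29 bp long, and such repeats add copies without adding separate sequences.

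The 356 regions were 51.9% of the 686 regions held by exactly 2 lines, and the other 5 pairs of lines had between 41 and 95 each. They took up 17.2% of the 2065 T47D sites and 20.3% of the 1757 HCT-116 sites. Regions of T47D alone numbered 1173, those of HCT-116 alone 705, and those of all 4 lines 232. PC3 and A549 had fewer sites, 970 and 1041. Peaks per library ranged from 1042 to 3790. The depth of the libraries is unknown, because the lists hold no reads. One T47D/HCT-116 region lay on an alternate haplotype of chromosome 17 outside the reference used here, so position and sequence are given for 355, and likewise for 1171 of the 1173 regions of T47D alone.

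Absence from PC3 and A549 rested on the rule that both replicates must have a peak. In 205 of the 356 regions (57.6%) at least 1 PC3 or A549 library did have a peak, and 151 regions (42.4%) had none in any. PC3 replicate 2 had a peak at 166 regions (46.6%, interval 41.4 to 52.0%), with a median score of 80.65, while PC3 replicate 1, the shortest list, had a peak at 3. A549 replicate 2 had a peak at 61 regions (17.1%) and replicate 3 at 20. In 121 regions PC3 replicate 2 was the sole one of these 4 libraries with a peak. Counting every peak of PC3 replicate 2 as a site, with replicate 1 left out, reduced the T47D/HCT-116 regions from 356 to 190. Leaving out HCT-116 replicate 3, so that every peak of replicate 2 was a site, raised them to 629. Of regions of T47D alone 84.9% had no PC3 or A549 peak, and of those of HCT-116 alone 71.9%. All intervals of shares are 95% exact binomial, those of differences between shares are Newcombe intervals, and both cover counting error only. Peak presence chose these regions, so no test was made on it.

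Most T47D/HCT-116 regions lay at gene starts. Of 355, 303 (85.4%, interval 81.2 to 88.9%) lay within 2 kb of where a protein-coding transcript begins, here called a promoter. The share was 50.5% of 1171 regions of T47D alone, 60.3% of 705 of HCT-116 alone and 72.0% of 232 of all 4 lines. It was higher in T47D/HCT-116 regions by 34.9 percentage points (interval 29.9 to 39.2) than in T47D alone (Fisher's exact test on regions, two-sided, adjusted over 6 tests, p = 8.46e-34), by 25.1 points (19.7 to 30.0) than in HCT-116 alone (p = 2.49e-17) and by 13.4 points (6.63 to 20.3) than in all 4 lines (p = 0.000192). These tests treat regions as the units and do not measure the spread between cultures. The share was 27.0% in the other pairs of lines, 60.7% in sites of 3 lines, 19.6% in PC3 alone and 12.9% in A549 alone. T47D/HCT-116 regions with no PC3 or A549 peak were at promoters in 86.7% of cases (n = 150) and those with such a peak in 84.4% (n = 205).

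**Figure D1:**
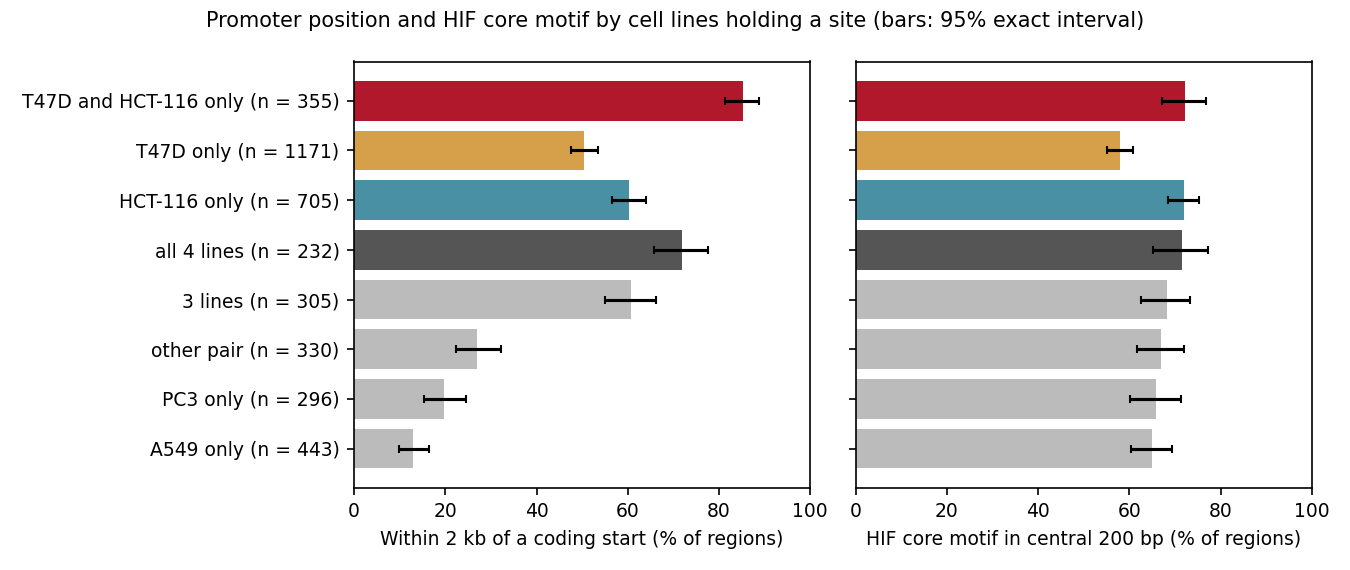
Share of regions within 2 kb of a protein-coding start (left) and with RCGTG, the HIF core motif, in the central 200 bp (right), for regions grouped by the lines that held a site, with 95% exact intervals. T47D/HCT-116 regions had the highest promoter share, 85.4%, while their motif share, 72.1%, lay within 1 point of HCT-116 alone and of all 4 lines.

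At promoters most regions were centred near a coding start. The nearest of all annotated coding transcript starts was used, which shortens the distance where there are many. This distance was not compared with other sets. The midpoint lay a median of 10 bp before the nearest start (quartiles 134 bp before and 111.5 bp after), within 250 bp of it in 212 of 303 regions (70.0%), and 292 regions (96.4%) covered a coding start. In 49 of the 303 (16.2%) coding genes started in both directions within the window, as at HSPD1 and HSPE1. The same held for 84 of 591 promoter regions of T47D alone, 55 of 425 of HCT-116 alone and 17 of 167 of all 4 lines. These counts were not tested. Over all 355 regions, at promoters or not, the median GC content of the central 500 bp was 67.0%. It was 58.6% in T47D alone, 64.2% in HCT-116 alone and 65.2% in all 4 lines. The ratio of observed to expected CpG was 0.846, against 0.508, 0.730 and 0.792 in the same order. At promoters alone the sets were closer, with a median GC content of 67.6%, against 65.6%, 68.6% and 67.0%. The ratio there was 0.856, against 0.825, 0.833 and 0.851. The regions were 907 to 11591 bp wide, with a median of 1661.5 bp, and the widest lay at PLEC, which encodes the cytoskeletal linker plectin. Measured from the midpoint, which width does not change, the promoter share was 84.5%, against 49.0% in T47D alone, 59.1% in HCT-116 alone and 68.1% in all 4 lines.

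Of the 52 regions away from coding starts, 34 lay outside protein-coding genes, 10 in their introns and 8 met an exon, with a median distance of 19690 bp to the nearest coding start. At 24 of the 52 (46.2%) another annotated gene began within 2 kb, most of them long non-coding RNAs. One of these, named here after its values were seen, was MALAT1, an abundant nuclear non-coding RNA, where scores were 269.26 and 245.15 in T47D and 171.98 and 65.24 in HCT-116. The highest-scoring region away from promoters met an exon of MYDGF, the gene of a secreted growth factor, 3602 bp from its start, with scores of 170.62 and 221.35 in T47D replicates 1 and 2 and 455.22 and 225.69 in HCT-116 replicates 2 and 3. The next were 112880 bp from IRF2BP2, a transcriptional corepressor, at the start of the non-coding LINC01132, and 84842 bp from TNS1, a focal adhesion protein, at a start of the non-coding DIRC3. The remaining pair of the highest 5 lay in an intron of RAI1 and at an exon of PRR7.

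RCGTG was present in the central 200 bp of 256 of 355 regions (72.1%, interval 67.1 to 76.7%). As background, 42.6% of 200 bp windows centred on the starts of 19820 protein-coding genes held it, and 25.8% of windows 5 kb to either side of the regions did. The share was 58.0% in T47D alone, lower by 14.1 points (interval of the difference 8.50 to 19.4, Fisher's exact test, adjusted p = 3.09e-06). It was 71.9% in HCT-116 alone, a difference of 0.198 points (-5.64 to 5.78, Fisher's exact test, adjusted p = 1), and 71.6% in all 4 lines, a difference of 0.561 points (-6.73 to 8.10, adjusted p = 1). The intervals leave room for differences of several points either way.

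The difference from T47D alone passed the test away from promoters and did not at promoters. Away from them, 40 of 52 T47D/HCT-116 regions (76.9%, interval 63.2 to 87.5%) held the motif, against 286 of 580 (49.3%) in T47D alone (Fisher's exact test, adjusted over 6 tests, p = 0.000779). At promoters the shares were 71.3% and 66.5%, a difference of 4.79 points (-1.70 to 11.0, Fisher's exact test, adjusted p = 0.451). Whether the 2 differences differ from each other was not tested. Away from promoters the motif share was 71.4% in HCT-116 alone and 75.4% in all 4 lines. Neither set differed from the T47D/HCT-116 regions past the threshold in Fisher's exact test. In the same place it was 69.3% in the other pairs of lines and 69.2% in regions of 3 lines. In PC3 alone it was 65.5% and in A549 alone 65.0%. Regions of T47D alone that lay away from promoters had a median GC content of 50.4%, and the T47D/HCT-116 regions 63.5%. The part of base composition in the motif share was not tested.

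The motif was densest at the centre of the regions. Copies fell from 7.80 per kb within 100 bp of the midpoint to 2.54 per kb at 900 to 1000 bp. CpG became rarer over the same distance, and per 100 CpG the copies were 8.39 at the centre and between 5.61 and 7.25 beyond it. T47D alone, HCT-116 alone and all 4 lines were also densest at the centre, at 5.49, 7.01 and 7.82 copies per kb. Per 100 CpG their centres held 9.88, 9.49 and 9.53, more than the 8.39 of the T47D/HCT-116 regions. Of 355 regions 99 had no copy in the central 200 bp, 114 had 1, 74 had 2 and 68 had more, up to 14 in the region nearest ADRA2C. Regions at VAPB, an endoplasmic reticulum protein, and those nearest TNS1 and RTP5 had 9 each. The region at the divergent start of EOLA1 had 8, as did that of HM13.

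**Figure D2:**
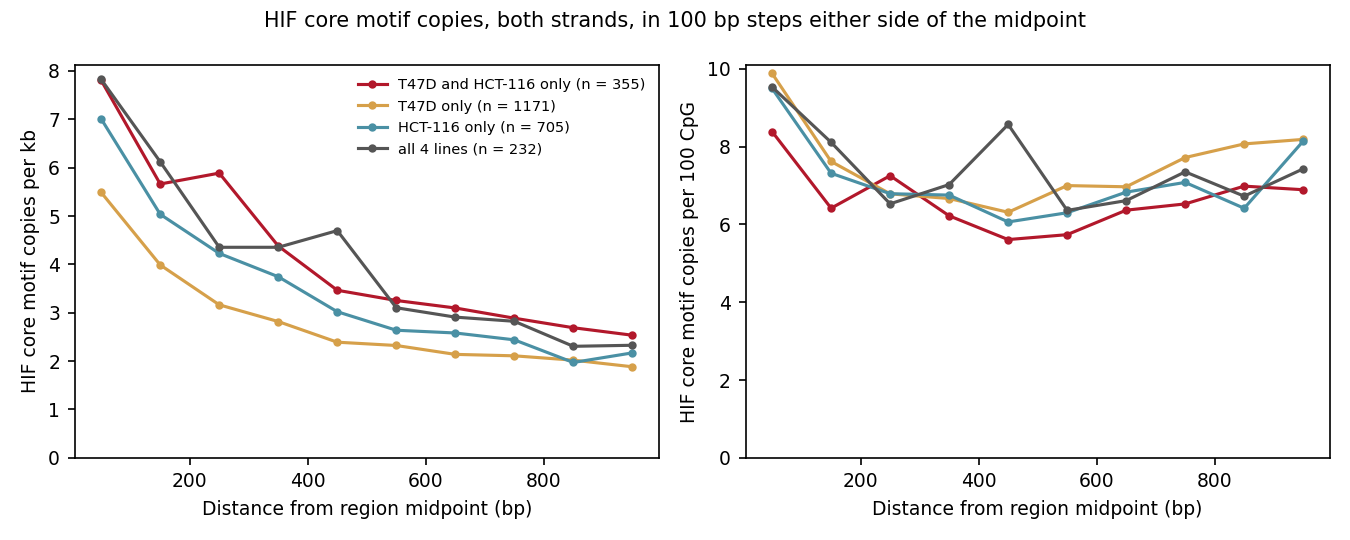
Copies of RCGTG, the HIF core motif, on both strands by distance from the midpoint of a region, in steps of 100 bp, per kb (left) and per 100 CpG (right), for 4 sets of regions. In T47D/HCT-116 regions the density fell from 7.80 to 2.54 per kb, while per 100 CpG the centre was at 8.39 and the other steps at 5.61 to 7.25. Per 100 CpG the centre of the other sets was at 9.49 to 9.88.

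The copies differed in their letters between sets. GCGTG made up 330 of the 544 copies in the central 200 bp of T47D/HCT-116 regions (60.7%) and ACGTG 214 (39.3%). GCGTG was 50.9% of 1277 copies in T47D alone, 52.5% of 977 in HCT-116 alone and 45.8% of 360 in all 4 lines. TGCGTG alone was 22.2% of copies, against 13.6% in all 4 lines, and tandem repeats such as that at VAPB add to it. Counting each region once, TGCGTG was in 20.6% of T47D/HCT-116 regions (interval 16.5 to 25.1%). It was in 11.2% of T47D alone, 15.2% of HCT-116 alone and 12.9% of all 4 lines (8.90 to 17.9%), and these shares were not tested. TACGTG, searched on both strands, was in 12.4% of T47D/HCT-116 regions (interval 9.15 to 16.3%), 12.3% of T47D alone, 11.1% of HCT-116 alone, 18.1% of all 4 lines (13.4 to 23.7%) and 2.10% of all coding starts. CACGTG was in 10.7%, against 12.5% in all 4 lines and 5.78% of all coding starts.

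Sequences of other factors were counted in the same windows. GGGCGG, the core of the GC box bound by SP factors, was in 55.5% of T47D/HCT-116 regions and in 48.1% of all coding starts. At promoters it was in 58.7% of T47D/HCT-116 regions, 52.6% of T47D alone and 57.6% of HCT-116 alone. TGANTCA, the AP-1 motif, was in 9 of 355 regions (2.54%, interval 1.17 to 4.76%), against 14.3% of HCT-116 alone (11.8 to 17.1%), 4.78% of T47D alone (3.63 to 6.17%) and 3.63% of all coding starts. Away from promoters it was in 3 of 52 T47D/HCT-116 regions (5.77%, interval 1.21 to 15.9%), in 39 of 580 of T47D alone (6.72%, interval 4.82 to 9.08%) and in 90 of 280 of HCT-116 alone (32.1%, interval 26.7 to 38.0%). At promoters the shares were 1.98%, 2.88% and 2.59% in the same order. A match of letters is not a site of binding. The differences between sets in these letters were not tested.

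Peaks of T47D/HCT-116 regions were of middle rank in their libraries. Scores, whose unit the lists do not explain, were compared only within a library, as the percentage of its peaks with a lower score. The median percentile was 66.2 and 65.3 in T47D replicates 1 and 2 and 72.8 and 49.6 in HCT-116 replicates 2 and 3. Regions of all 4 lines stood at 93.2, 93.1, 95.7 and 91.5 in the same order. Regions of T47D alone stood at 55.1 and 52.5, and those of HCT-116 alone at 63.6 and 36.5. The highest percentile of a T47D/HCT-116 region in any of the 4 libraries was 97.6, and 2 regions passed the 90th percentile in all of them. Averaged over the 4 libraries, the median percentile was 65.8 in the 205 regions with a PC3 or A549 peak and 52.2 in the 150 with none. The peaks chose the regions, so these values are a description.

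**Figure D3:**
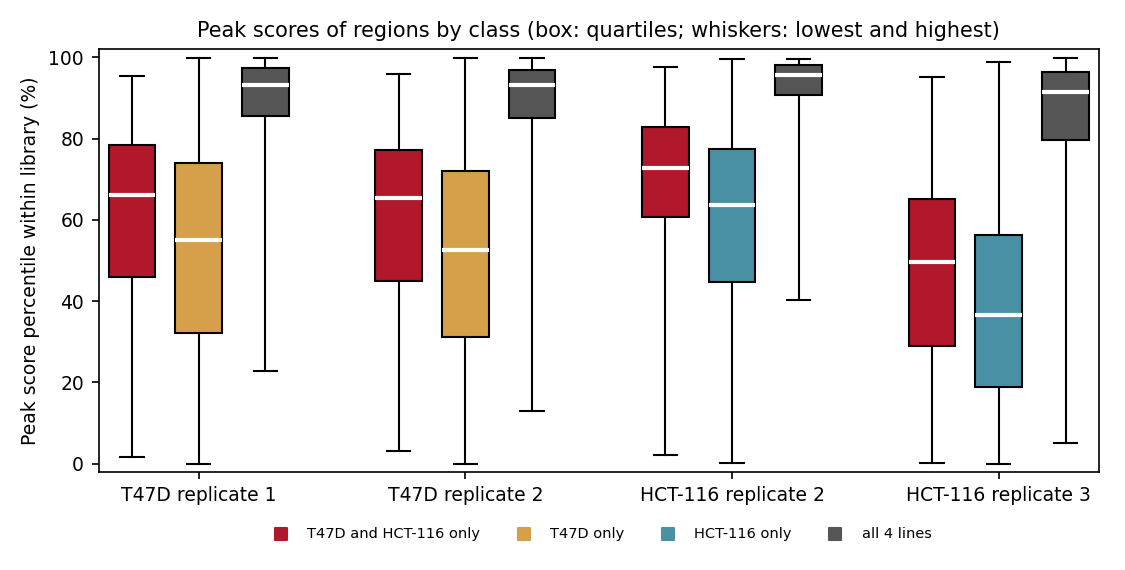
Percentile of the peak score within each T47D and HCT-116 library for regions of both lines only, of that line alone and of all 4 lines. Boxes are quartiles with the median in white and whiskers reach the lowest and highest values. The medians of T47D/HCT-116 regions, 49.6 to 72.8, lay between those of single-line regions and those of all 4 lines in every library.

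The highest mean percentile was that of RCOR2, which encodes a corepressor that partners REST. Its peak scored 356.29 and 436.18 in T47D replicates 1 and 2 and 1067.69 and 587.49 in HCT-116 replicates 2 and 3, and no PC3 or A549 library had a peak there. Its central 200 bp held no RCGTG, although the whole region held 4 copies, one pair of them in the CACGTG printed above. NEBL, the gene of the actin-binding protein nebulette, came next, with scores of 423.63 and 479.47 in T47D and 626.71 and 379.51 in HCT-116. PC3 replicate 2 and A549 replicate 2 had peaks of 103.9 and 101.48 at NEBL. The others of the highest 10, all at promoters, were ZNF19, MATCAP1, a tubulin carboxypeptidase, ADPRS with TEKT2, the RNA helicase DDX41, the ubiquitin ligase RNF187, HDHD5, the nuclear receptor coactivator NCOA5 and DIPK2A. Their mean percentiles lay between 88.4 and 92.6. RNF187 had the highest T47D scores of all the regions, 454.46 and 632.86, with 295.3 and 228.68 in HCT-116. PC3 replicate 2 had a peak at 9 of these 10 and PC3 replicate 1 at none.

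The lines ranked the regions differently. Spearman's rho of the scores over the 356 regions was 0.56 between the replicates of T47D, 0.64 between those of HCT-116, and 0.21 to 0.33 between a T47D and an HCT-116 library. These points share libraries and selection, and are given as a description. In 83 regions both T47D percentiles were above both HCT-116 percentiles, in 64 both were below, and in 209 they overlapped. How many regions would separate this way if the lines ranked them alike was not tested. The region at MAP3K1, a kinase of the MAPK pathway, was among the most uneven, with percentiles of 84.2 and 88.8 in T47D and 12.9 and 1.57 in HCT-116. At GJA3, which encodes a connexin, the order was the opposite, with 10.8 and 4.30 in T47D and 87.3 and 86.2 in HCT-116. Both genes were picked after their values were seen.

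VEGFA, which encodes the main angiogenic growth factor induced by hypoxia, was one of 2 genes of a 53-gene list of HIF pathway and hypoxia-induced genes with a T47D/HCT-116 region at its promoter. The region, chr6:43736839-43740019, runs from upstream of the gene (ENSG00000112715) past its first exon into the first intron. The highest peak scored 376.47 in T47D replicate 1, 205.54 in T47D replicate 2, 161.7 in HCT-116 replicate 2 and 98.31 in HCT-116 replicate 3. PC3 replicate 2 had a peak of 54.6, and PC3 replicate 1 and both A549 libraries had none. The nearest site of PC3 or A549 lay 100173 bp away. T47D peaks spanned the start as 1 interval, of 3181 and 2867 bp. HCT-116 replicate 2 had a pair of peaks, from 1124 bp before to 282 bp after the first coding start (score 84.75) and from 601 to 1998 bp after it, and replicate 3 had the downstream one alone.

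Of the 17 copies of RCGTG in the VEGFA region, 9 lay under peaks of all 4 T47D and HCT-116 libraries, all of them over 1 kb after the first start. The intronic stretch printed above holds 5 of those 9. The TACGTG of the first printed stretch, 976 bp before the start, was under peaks of T47D replicate 1 and HCT-116 replicate 2. That at 313 bp before the start was under peaks of 3 libraries. The other gene of the list was JMJD6, which encodes a Jumonji-domain dioxygenase and starts next to METTL23. Its region scored 207.73 and 67.5 in T47D and 262.62 and 127.53 in HCT-116, with 106.84 in PC3 replicate 2, and held 11 copies of RCGTG but none in its central 200 bp.

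**Figure D4:**
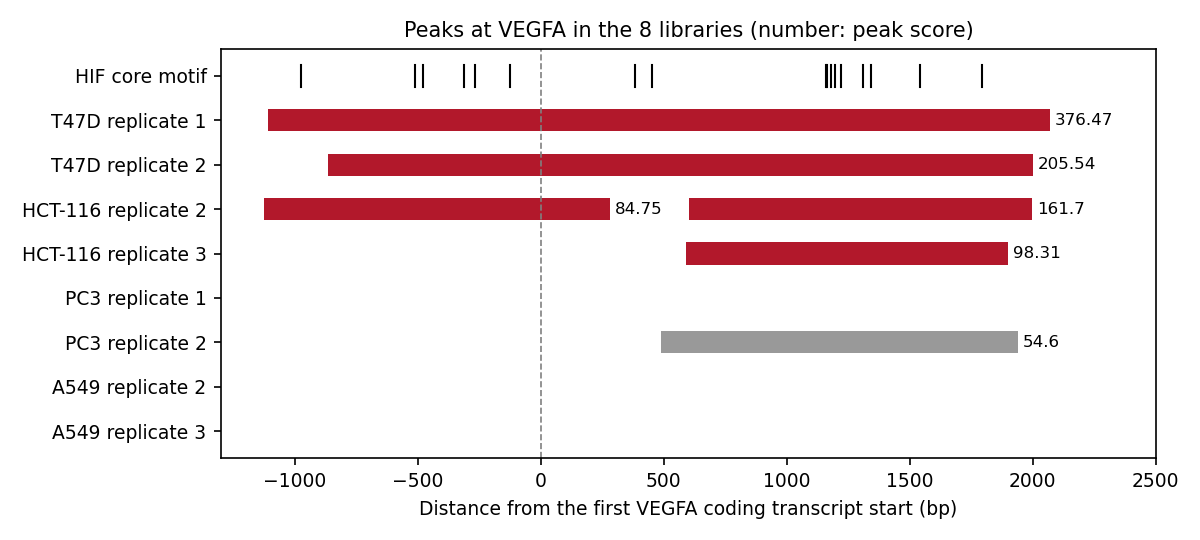
Peaks of the 8 libraries at VEGFA by distance from the first coding transcript start (dashed line), with the score at the right of each peak and the RCGTG copies, the HIF core motif, as ticks. Peaks of all 4 T47D and HCT-116 libraries share the stretch after the start that holds 9 copies, and of the other libraries PC3 replicate 2 alone had a peak, with a score of 54.6.

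Over all 19820 protein-coding genes, 373 (1.88%) had a T47D/HCT-116 region within 2 kb of a start. Of the 53 HIF pathway and hypoxia-induced genes, 2 did (3.77%), while 39 had a T47D site, 37 an HCT-116 site and 31 a region of all 4 lines. None of 19 glycolysis genes did, while 17 had a T47D site and 14 a region of all 4 lines. Of genes with a site of both T47D and HCT-116 at a start, 49.7% of 750 had a T47D/HCT-116 region, against 2 of 35 (5.71%) in the HIF list and 0 of 17 in the glycolysis list. Within 25 kb of a start the same 2 HIF list genes had one (3.77%), against 3.30% of all coding genes. None of 9 aryl hydrocarbon receptor targets had one at its promoter. The rule keeps out regions of all 4 lines, so a gene with only such a region at its start could not count towards the T47D/HCT-116 shares.

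Of 72 splicing factors, 23.6% had a T47D site and 19.4% an HCT-116 site at a start, against 7.41% and 6.50% of all coding genes. A T47D/HCT-116 region was at the promoter of 7 of them (9.72%). The highest were SRSF4 and SRSF3, serine and arginine rich splicing factors, and HNRNPK and HNRNPDL, RNA-binding proteins of the hnRNP family. Their mean percentiles were 82.7, 77.4, 81.0 and 70.7. The remaining ones, SRSF6, HNRNPUL2 and HNRNPH3, were at 50.4, 47.9 and 46.1, under the median of 61.4 over all 356 regions. SRSF4 scored 234.46 and 214.42 in T47D and 266.36 and 165.57 in HCT-116. Of 82 chaperone genes, 12.2% had a T47D site and 13.4% an HCT-116 site at a start. A T47D/HCT-116 region was at the promoter of 6 of them (7.32%), at 5 regions. HSPD1 and HSPE1, the mitochondrial chaperonin and its cochaperonin, share a divergent promoter, whose region scored 69.28 and 145.53 in T47D and 291.21 and 204.98 in HCT-116 and held 14 copies of RCGTG with none in the central 200 bp. The others were DNAJC30, DNAJC11, the mitochondrial Hsp70 HSPA9 and the cytosolic Hsp90 HSP90AB1, with mean percentiles of 69.1, 62.0, 58.8 and 35.0. HSPA9 and HSP90AB1 were under the median of 61.4 and held no RCGTG in the central 200 bp, where DNAJC30 held 1 copy and DNAJC11 4. Of genes with a site of both T47D and HCT-116 at a start, T47D/HCT-116 regions held all 6 chaperone genes and 7 of 9 splicing factors. They also held 6 of 9 ubiquitin and proteasome genes, 3 of 5 of the translation factor list and 3 of 6 autophagy genes. The last share, 50%, stood beside 49.7% over all coding genes. Zinc finger genes were at 12 of 28 (42.9%). Of lists with 2 such genes, mitochondrial ribosomal proteins were at 2, and cytosolic ribosomal proteins and oxidative phosphorylation genes at 1 each. Circadian clock, replication and cell cycle, and aryl hydrocarbon receptor target genes were at 0 of 2 each.

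Of 33 autophagy genes, 24.2% had a T47D site and 24.2% an HCT-116 site at a start, against 7.41% and 6.50% of all coding genes. A T47D/HCT-116 region was at 3 of them (9.09%), ATG10, an E2-like conjugating enzyme, MAP1LC3B, the membrane marker LC3B, and BECN1, a subunit of the phosphatidylinositol 3-kinase complex that starts autophagosomes. ATG10 scored 159 and 105.54 in T47D and 362.15 and 163.36 in HCT-116. Mean percentiles of ATG10, MAP1LC3B and BECN1 were 75.8, 63.1 and 46.3, the last under the median of 61.4 over all regions. Their central 200 bp held 2, 0 and 3 copies of RCGTG. Of 148 ubiquitin and proteasome genes 6 had one (4.05%), among them PSMC4, a proteasome ATPase. Of 68 genes in the translation factor list 3 did (4.41%), EEF1A1, the elongation factor, and 2 genes caught by the name of the family that are not translation factors, the methyltransferase EEF1AKMT4 and the stress kinase EIF2AK3. The zinc finger genes (12 of 536, 2.24%) and the mitochondrial ribosomal proteins (2 of 78, 2.56%) were close to the background. Cytosolic ribosomal proteins (1 of 88, 1.14%, RPL18) and oxidative phosphorylation genes (1 of 87, 1.15%, COX5A) had 1 gene each, too few to set apart from the background. The other lists had none, among them 91 replication and cell cycle genes, 66 replication-dependent histones, 14 luminal breast and 12 intestinal identity genes. A few genes decide each share, and no list was tested.

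**Figure D5:**
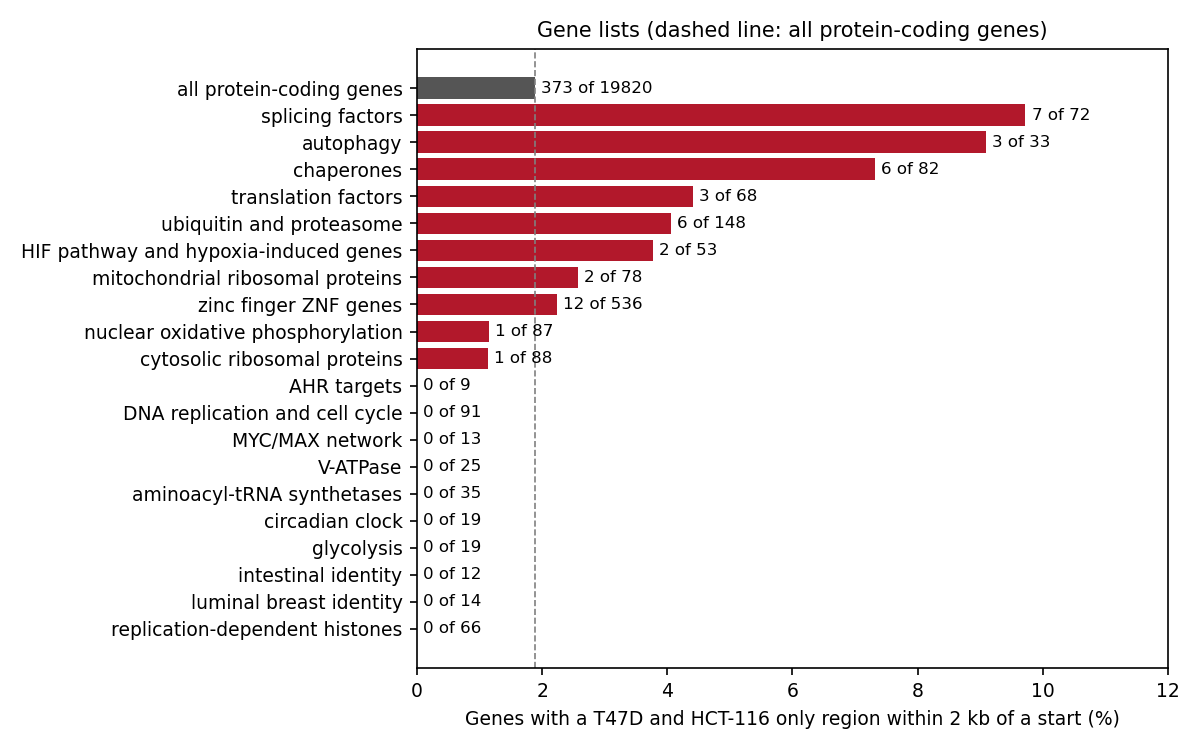
Percentage of the genes of each list with a T47D/HCT-116 region within 2 kb of a start, with counts beside the bars, and all protein-coding genes as the dark bar and dashed line (1.88%). Splicing factors, autophagy genes and chaperones reach 7.32 to 9.72%, and 10 lists are at 0. Sites of T47D and of HCT-116 of any kind were also more frequent in splicing factors, autophagy genes and chaperones than in all coding genes.

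The regions were spread over the genome unevenly. Chromosome 16 had 30 of them, 31.9% of its T47D sites and 35.3% of its HCT-116 sites, and chromosome 20 had 16, 27.6% and 34.8%, against 17.2% and 20.3% over the genome. Chromosome 8 had 8, 8.99% and 10.5%. Copy number of these chromosomes in the lines was not analysed here. A PC3 or A549 site lay within 25 kb of 26 of 355 regions (7.32%) and within 2 kb of 6.

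Just inside the rule stood the regions at ANAPC11 and ALYREF, with scores of 50.58 and 56.65 in T47D and 51.94 and 65.1 in HCT-116, at ZNF613, with 52.51 and 51.42 and then 71.56 and 52.16, and nearest MYT1L, with 59.3 and 51.82 and then 67.16 and 77.97. Their mean percentiles were 11.2, 11.3 and 22.6, and the lowest score of a list was 50. The shortest overlaps between replicate peaks, at TRIM33, ATP13A2 and LAMTOR5, were 542, 556 and 589 bp. Just outside were regions with a peak in 3 of the 4 libraries. At that nearest TNRC18, HCT-116 replicate 2 scored 193.06 and T47D 296.86 and 318.85, at RNF19A T47D replicate 2 scored 173.86 and HCT-116 346.77 and 323.89, and at FKBP15 and SLC31A1 HCT-116 replicate 2 scored 143.32 and T47D 294.64 and 306.08. There were 283 regions of T47D alone with a peak in 1 HCT-116 replicate, 274 of them in replicate 2, whose list was the longest, and 170 of HCT-116 alone with a peak in 1 T47D replicate.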

How the data were processed

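HIF-1β ChIP-seq peak lists of 4 cell lines, with 2 replicates each, were used. The submitters' processing notes name Trim Galore 0.3.3, BWA 0.7.5a-r405, SAMtools 0.1.19, Picard 1.106, bedtools 2.17.0 and MACS, and the build GRCh37 (hg19). Peaks were called by the authors with MACS, library by library, and deposited with a score for every peak, whose unit is not explained. Peaks were also to coincide with those of T-PIC, a step that cannot be seen in the lists. Reads were not used here, so a score threshold limits what counts as absent. Sites and regions were built as the report describes, on all contigs. Annotation was GENCODE 44 lifted to GRCh37, and promoters were 2 kb either side of the starts of protein-coding transcripts. Base composition was taken over the central 500 bp. Tests were Fisher's exact tests with Benjamini-Hochberg adjustment at 0.05, and were tested on simulated data, as was the overlap counting. The work used Python 3.11.15, SciPy 1.17.1 and pysam 0.24.0. Regions, gene lists and tests were chosen with earlier results of these data known. Named regions were HIF list genes within 25 kb of a region, the 10 highest by mean percentile and 5 away from promoters, 3 on each side of the threshold, up to 4 genes per list, and the 5 with most central RCGTG copies. HM13, MALAT1, PLEC, MAP3K1 and GJA3, and further list genes, were named after their values were seen. Alternatives were stricter overlaps, the higher-scoring 50% of peaks, peaks of either replicate, other promoter and motif windows, and each replicate left out.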

Additional observations from a re-analysis of the deposited data

How the results depend on the processing

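The number of T47D/HCT-116 regions depended most on what counts as a site. It was 356 as reported, 201 with the higher-scoring 50% of each list, 151 when a peak of either PC3 or A549 replicate excluded a region, and 676 when a peak of either replicate was a site in every line. With each replicate left out it ranged from 190 (without PC3 replicate 1) to 629 (without HCT-116 replicate 3). Of the 201 and 676 regions, those overlapping the 356 covered 111 and 151 of them. The promoter share was 89.1% in the higher-scoring 50% and 92.1% with the starts of every annotated gene, and 85.2 to 86.8% with a replicate left out. The RCGTG share was 79.0% around the middle of the interval shared by 4 peaks, 94.4% in the central 500 bp and 99.4% in whole regions, since longer windows hold more letters. The promoter differences from the other 3 sets kept their direction and adjusted p under 0.05 with a 500 bp promoter, with the midpoint in place of the edges, an alternative chosen after seeing the data, and without any 1 replicate. The RCGTG difference from T47D alone was 4.79 points at promoters and no longer past the threshold. That from HCT-116 alone, 0.198 points, ranged from -4.69 to 5.79 points with a replicate left out, and passed the threshold without HCT-116 replicate 3 (5.79 points, Fisher's exact test, adjusted p = 0.00753). No paired analysis was possible because shares of regions come from the overlap of both replicates of a line and carry no replicate number. Without reads, a missing peak cannot be told apart from binding under the score limit of a shallower library.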
